A study of Mus musculus with 8 samples.

Results

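Cyclin B1, its processed gene copies, cyclin B2, Cdk1 and the Cks subunits were examined as 7 genes of the 37310 listed in all 8 libraries of mouse embryonic stem cells. The 7 were chosen by symbol, after mapping the Ensembl gene identifiers of the count tables to mouse symbols: Ccnb1, Ccnb1-ps, Gm12856, Ccnb2, Cdk1, Cks1b and Cks2. All 7 had a row in every library, and all 7 passed the filter on low counts. Gm12856 had no counts in the libraries labelled knockdown and passed on its counts elsewhere.

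The study screened RNA helicases by RNA interference, per its title, and concerned eIF4A3, a helicase of the exon junction complex, in embryonic stem cell identity. Poly-A RNA was sequenced from 4 groups of 2 libraries. In the J1 line, of strain 129S4/SvJae, the first group carried a control knockdown and control expression, the second an eIF4A3 knockdown with control expression, and the third an eIF4A3 knockdown with Ccnb1 expression. In the CCE line, of strain 129/Sv, the only group analysed here was labelled eIF4A3 knockdown, so CCE allowed no comparison. All cells were grown without feeders in serum with leukemia inhibitory factor, transfected and then infected with lentivirus. Selection in puromycin (1 µg/mL) lasted 2.5 days, and cells were taken on day 4.5 of infection. The labels name neither the knockdown sequence nor the Ccnb1 sequence that was expressed, and they do not say whether the libraries of a group came from separate cultures. P-values therefore measure the spread between these libraries, which may be technical.

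The libraries labelled knockdown stood apart from the other J1 libraries. They held 4398141 and 3596615 gene counts, against 5740965 to 8340023 in the other 4 J1 libraries and 23966825 and 25574740 in CCE. Reads listed as unaligned made up 40.8% and 45.2% of their totals, against 15.7% to 15.9% in the other J1 libraries. The CCE libraries listed 0%, but the lines were counted in different ways, so that value cannot be set beside those of J1. The spread between them was 22 times Poisson noise, against 3.41 times in the control and 1.88 times in the Ccnb1 group. Eif4a3 stood at 73.5 and 83.7 CPM (counts scaled to 1000000 gene counts per library) in the control, at 75.7 and 37.5 CPM in the libraries labelled knockdown, at 47.3 and 53.5 CPM with Ccnb1 expression and at 48.8 and 53.9 CPM in CCE. The first library labelled knockdown thus lay within the control range, and the difference from the control was not called (log2 fold change -0.63, standard error (SE) 0.33, adjusted p 0.211 by edgeR). Without library 1 labelled knockdown that log2 fold change was -1.25, and without library 2 it was -0.25. Each of these fits leaves 1 library in the group, so neither measures the spread between the libraries labelled knockdown. The 6 embryonic stem cell markers had counts in all 8 libraries. Their summed level was 6330 to 6341 CPM in the control, 3126 to 3479 CPM in the libraries labelled knockdown, 6564 to 6587 CPM with Ccnb1 expression and 2999 to 3282 CPM in CCE. The 4 primitive endoderm markers summed to 5.40 to 8.75, 23.6 to 25.3, 62.1 to 67.4 and 76.3 to 89.97 CPM in the same order, and 5 fibroblast markers to at most 38.0 CPM in any library. No single endoderm marker was called by edgeR in any J1 comparison. In the libraries labelled knockdown, Sox17 had 0 counts in library 1 and Gata4 in library 2. The fibroblast marker Col1a1 was called 11.3-fold higher in the libraries labelled knockdown than in the control (adjusted p 0.0121, edgeR). Trophectoderm markers summed to 3.14 to 11.6 CPM in J1 and 90.2 to 120 CPM in CCE, there mostly on Krt8. Mesoderm and neuroectoderm markers summed to at most 21.4 and 50.5 CPM. Single stem cell markers differed in direction between Ccnb1 expression and control. Pou5f1 was called lower with Ccnb1 expression (log2 fold change -0.88, adjusted p 0.000473, edgeR). Nanog (0.97), Zfp42 (0.35) and Esrrb (0.30) were called higher, and Sox2 and Tdgf1 were not called. What part these differences had in the results that follow was not tested, and in bulk RNA fewer cells of a type and less RNA per cell cannot be told apart.

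Cyclin B1 and cyclin B2 bind and activate Cdk1, the kinase that drives cells into mitosis. Cyclin B messenger RNA builds up through the later part of the cell cycle, and the protein is destroyed at anaphase by the anaphase-promoting complex. The small Cks subunits sit on Cdk1 and help it bind phosphorylated substrates, and Cks1 also serves the ubiquitin ligase that removes the inhibitor p27. Embryonic stem cells cycle fast, with a short first gap phase, so a large share of them is in the phases that hold cyclin B.

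Ccnb1 lies on chromosome 13 with 9 exons in its main transcript, and its coding sequence of 1293 bases holds 8 exon junctions. Ccnb1-ps on chromosome 7 and Gm12856 on chromosome 4 are annotated as processed pseudogenes, single-exon copies of the spliced messenger RNA, by GENCODE M21 (build GRCm38). Ccnb1-ps matched the Ccnb1 coding sequence at 99.2% of aligned bases with 10 substitutions, and Gm12856 at 98.3% with 22. Of the 1194 windows of 100 bases along the coding sequence, 59.8% crossed an exon junction. Ccnb1-ps matched 43.0% of the windows without a difference and Gm12856 matched 19.7%. The bases around the junctions after coding bases 537 and 1185 show how a read on spliced Ccnb1 compares with the copies. Positions count from the first base of the start codon. Capitals mark the 3 bases on each side of the junction in Ccnb1, and in the copies the bases that differ from Ccnb1.
Ccnb1, junction after base 537: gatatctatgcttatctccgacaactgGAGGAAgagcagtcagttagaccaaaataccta
Ccnb1-ps, same stretch: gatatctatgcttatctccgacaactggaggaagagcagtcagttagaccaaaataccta
Gm12856, same stretch: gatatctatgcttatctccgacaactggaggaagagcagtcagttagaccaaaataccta
Ccnb1, junction after base 1185: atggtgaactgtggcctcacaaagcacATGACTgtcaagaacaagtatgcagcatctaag
Ccnb1-ps, same stretch: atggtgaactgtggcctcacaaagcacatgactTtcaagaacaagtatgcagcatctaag
Gm12856, same stretch: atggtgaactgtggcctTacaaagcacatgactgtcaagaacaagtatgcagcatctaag
At the first junction the 60 bases were identical in all 3 genes, and at the second each copy differed by 1 base. In the genome these stretches are unbroken only at the copies, since an intron splits them in Ccnb1. Counts per gene do not tell from which transcript a read came, so the values of Ccnb1, Ccnb1-ps and Gm12856 are uncertain one by one and are given both singly and summed. In J1, 20.6% to 33.7% of reads were listed as of low alignment quality and counted on no gene. Reads that match several of these genes may be among them, which was not tested, so the sum may lack some reads of the family. Of 4 copies found at 90% identity or more over at least 200 bases, the other 2 (Gm8416 and Gm4870) were not analysed here.

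Ccnb1 itself lay between 101 and 136 CPM in all 6 J1 libraries. It stood at 135 and 129 CPM in the control, 101 and 126 CPM in the libraries labelled knockdown, and 136 and 131 CPM with Ccnb1 expression. The libraries labelled knockdown both lay below the other 4, and the control and Ccnb1 groups overlapped. In the group labelled as expressing Ccnb1, the Ccnb1 row was at 0.96 times the control (95% interval 0.760 to 1.21, log2 fold change -0.06, SE 0.14, adjusted p 0.814 by edgeR). Against the libraries labelled knockdown it was 1.24-fold higher (interval 0.981 to 1.57), which edgeR did not call (log2 fold change 0.31, SE 0.14, adjusted p 0.128). An offset for GC content and length that was not centred per library turned this difference, to a log2 fold change of -0.38 (adjusted p 0.0440, edgeR).

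Counts on the copies were higher with Ccnb1 expression. Ccnb1-ps stood at 28.0 and 33.3 CPM in the control, 25.2 and 29.8 CPM in the libraries labelled knockdown, and 267 and 283 CPM with Ccnb1 expression. Its level with Ccnb1 expression was far outside the range of the other J1 libraries. It rose 8.46-fold over the control (95% interval 6.53 to 10.98, log2 fold change 3.08, SE 0.15, adjusted p 0.000567, edgeR). Over the libraries labelled knockdown it rose 10.6-fold (interval 8.07 to 13.9, log2 fold change 3.40, SE 0.16, adjusted p 0.000182, edgeR). Both calls held under all 17 alternatives, with adjusted p of at most 0.0293 and 0.00707.

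Gm12856, the copy with more substitutions, moved the same way at a lower level. It had 19 and 24 counts in the control (3.31 and 2.88 CPM), 0 and 0 in the libraries labelled knockdown, and 202 and 224 with Ccnb1 expression (34.4 and 33.8 CPM). The 3 groups did not overlap. It rose 10.4-fold from the control to the Ccnb1 group (log2 fold change 3.38, SE 0.42, adjusted p 0.00937, edgeR), a call that was lost without any single control or Ccnb1 library (adjusted p 0.117 to 0.176). Over the libraries labelled knockdown it was at least 4.13-fold higher (adjusted p 0.00116, edgeR), with the floor of 3 counts over the group multiplied by that group's spread over Poisson noise. It was called lower in the libraries labelled knockdown than in the control (adjusted p 0.00661, edgeR), but no fold can be given, since the control level lay under this floor of 8.25 CPM. That call was lost without any single control or Ccnb1 library (0.0512 to 0.0604) and with counts divided by the spread (0.279).

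Summed with its copies, Ccnb1 stood at 166 and 165 CPM in the control, 126 and 156 CPM in the libraries labelled knockdown, and 437 and 447 CPM with Ccnb1 expression. The sum separated the Ccnb1 group from the rest, which the Ccnb1 row alone did not. The sum rose 2.53-fold over the control (interval 2.08 to 3.09, log2 fold change 1.34, SE 0.12, adjusted p 0.00193, edgeR) and 3.31-fold over the libraries labelled knockdown (interval 2.70 to 4.06, log2 fold change 1.73, SE 0.12, adjusted p 0.000440, edgeR). The first call was lost without control library 1 or 2 (adjusted p 0.0553 and 0.0575, edgeR), at log2 fold changes of 1.36 in both. Of the mean rise of 276 CPM over the control, 1.34 CPM was on Ccnb1, 244 CPM on Ccnb1-ps and 31.0 CPM on Gm12856, so 99.5% of the rise was counted on the copies. Over the libraries labelled knockdown the rise was 301 CPM, with 93.4% on the copies.

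The share of the summed counts that lay on the copies was 18.9% and 21.9% in the control (exact 95% binomial intervals 16.4% to 21.5% and 19.7% to 24.2%). It was 20% and 19.1% in the libraries labelled knockdown (16.7% to 23.6% and 15.9% to 22.6%), and their intervals overlap those of the control. With Ccnb1 expression it was 68.8% and 70.8% (67.0% to 70.6% and 69.1% to 72.4%). Group means were 20.4% ± 2.13, 19.5% ± 0.655 and 69.8% ± 1.40 (SD, n = 2 each). The share was not tested; an exact permutation test of 2 against 2 libraries can give no p below 0.333. The binomial intervals hold counting error alone. The ratio of Ccnb1-ps to Gm12856 counts was 8.47 and 11.6 in the control and 7.75 and 8.36 with Ccnb1 expression. These ranges did not overlap, but the control ratios rest on 19 and 24 Gm12856 counts, and the difference was not tested.

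Processed pseudogenes together took 8.08% and 8.04% of gene counts in the control, 6.47% and 6.43% in the libraries labelled knockdown, and 7.73% and 7.70% with Ccnb1 expression. Of 845 tested, 12.5% were called higher and 12.1% lower with Ccnb1 expression than in the control (9.35% and 10.5% of all genes tested), and by log2 fold change Gm12856 ranked 28 and Ccnb1-ps 35 among them. With the centred offset for GC content and length these calls went from 106 higher and 102 lower to 118 and 44. Against the libraries labelled knockdown, 41.3% of the 845 were called higher and 8.99% lower with Ccnb1 expression (22.8% and 16% of all genes). In that comparison Ccnb1-ps ranked 144 among the 845, and Gm12856, without counts in the libraries labelled knockdown, ranked 1. The median log2 fold change of the 845 with Ccnb1 expression was 1.16 over the libraries labelled knockdown and 0.19 over the control. Between knockdown and control 3.2% were called higher and 34.8% lower (11% and 17.9% of all genes). Whether the counts on Ccnb1-ps and Gm12856 came from the expressed Ccnb1 or from the copies' own loci was not tested.

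**Figure D1:**
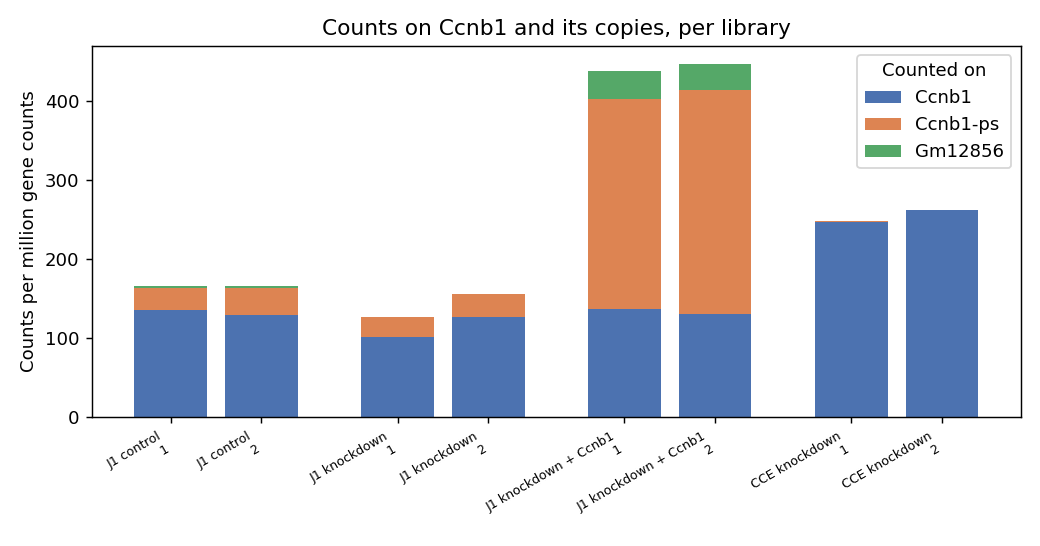
CPM of Ccnb1 (blue), Ccnb1-ps (orange) and Gm12856 (green), stacked from 0, with a bar for each of the 8 libraries. The Ccnb1 parts of the 6 J1 bars lie between 101 and 136 CPM, the Ccnb1-ps parts of the bars with Ccnb1 expression reach 267 and 283 CPM, and the CCE bars are almost wholly Ccnb1.

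The CCE libraries showed the family differently. Ccnb1 stood at 247 and 261 CPM, Ccnb1-ps at 0.376 and 0.196 CPM (9 and 5 counts) and Gm12856 at 2 and 0 counts. The copies took 0.185% and 0.0747% of the summed counts (exact 95% intervals 0.0926% to 0.332% and 0.0243% to 0.174%). All processed pseudogenes took 0.179% and 0.168% of CCE gene counts, so few reads were counted on any copy in these libraries. Reads listed as not uniquely aligned made up 9.71% and 10.03% of the CCE totals and 0% of the J1 totals, and reads of low alignment quality 0% in CCE and 20.6% to 33.7% in J1. The lines and the counting cannot be told apart, and the CCE levels are set beside the J1 levels with no test.

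In the libraries labelled knockdown, 5 of the 7 genes were called lower than in the control and 0 higher, and the median log2 fold change was -0.77. Over all 14462 genes tested, 28.9% were called, 11% higher and 17.9% lower, with a median of -0.08. With total counts as the only scaling that median was 0.06, and higher calls rose from 38.0% of all calls to 49.0%. With the GC and length offset not centred per library they were 57.0% of all calls. The 5 were Cks1b, Cks2, Ccnb2, Cdk1 and Gm12856. In 6 of the 7 genes, Ccnb1-ps being the exception, the groups did not overlap in CPM, as in 62.3% of all genes tested. With a library left out, the median log2 fold change of the 7 ranged from -0.96 to -0.64. That of all genes ranged from -0.20 to -0.0038. Of the 5 calls only that of Cks1b held under all 17 alternatives.

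Cks1b, the Cks subunit that also works in p27 destruction, fell most of the coding genes among the 7. It stood at 133 and 136 CPM in the control, 40.9 and 39.8 CPM in the libraries labelled knockdown, 86.9 and 86.9 CPM with Ccnb1 expression, and 105 and 107 CPM in CCE. The 3 J1 groups were well apart and the libraries within each were close. It fell 3.70-fold, to 0.270 times the control (95% interval 0.222 to 0.329, log2 fold change -1.89, SE 0.12, adjusted p 0.000579, edgeR), and the call held under all 17 alternatives. With Ccnb1 expression it rose 2.28-fold over the libraries labelled knockdown (interval 1.87 to 2.77, log2 fold change 1.19, SE 0.11, adjusted p 0.00125, edgeR), also under all 17. It remained 1.63-fold below the control (log2 fold change -0.70, SE 0.11, adjusted p 0.0104, edgeR). That last call was lost without any single control or Ccnb1 library (adjusted p 0.125 to 0.165) and with an offset for GC content and length (0.0513). Its copy Cks1brt had at most 2 counts in any library, and 2 further copies were not analysed here.

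Cks2, the other Cks subunit, stood at 50.3 and 43.6 CPM in the control, 22.7 and 27.2 CPM in the libraries labelled knockdown, 29.1 and 31.4 CPM with Ccnb1 expression, and 62.7 and 63.7 CPM in CCE. Both eIF4A3 groups of J1 lay below the control. It fell 2.09-fold in the libraries labelled knockdown (log2 fold change -1.07, SE 0.22, adjusted p 0.0189, edgeR). The call was lost without any single control or Ccnb1 library (adjusted p 0.0796 to 0.149), and under the centred GC and length offset, which brought the log2 fold change to -0.61 (0.0797, edgeR). With Ccnb1 expression edgeR called no difference from the libraries labelled knockdown (log2 fold change 0.36, SE 0.22, adjusted p 0.248) or from the control (-0.71, SE 0.21, adjusted p 0.0710). Without library 2 labelled knockdown the first was 0.56. It was negative, without a call, under 3 alternatives (-0.01 with the centred offset, alone or with the replicate block, and -0.47 with the uncentred one). Without library 1 or 2 labelled knockdown the second passed (-0.68 and -0.67, adjusted p 3.55e-05 and 7.06e-05, edgeR).

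Cks2 has copies as well. Gm15452 matched it over its whole coding sequence of 240 bases at 100% and held 46 and 51 counts in the control, 1 and 0 in the libraries labelled knockdown, and 41 and 46 with Ccnb1 expression. With Gm12891, which had at most 2 counts in the control, the copies took 14.0% and 12.7% of the summed counts in the control, 0.990% and 0% in the libraries labelled knockdown, and 19.3% and 18.1% with Ccnb1 expression. Like Gm12856, the Cks2 copies together were at or near 0 in the libraries labelled knockdown and present in the other J1 libraries. Ccnb1-ps, in contrast, stood at 25.2 and 29.8 CPM in the libraries labelled knockdown. Of the 845 processed pseudogenes tested, 34.8% were called lower there than in the control. The sum gave log2 fold changes of -1.27 (adjusted p 0.00958), 0.65 (0.0522) and -0.62 (0.0856) by edgeR for knockdown against control, Ccnb1 expression against knockdown, and Ccnb1 expression against control.

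Cdk1, the kinase itself, stood at 82.7 and 70.0 CPM in the control, 56.2 and 54.2 CPM in the libraries labelled knockdown, 76.0 and 71.3 CPM with Ccnb1 expression, and 153 and 140 CPM in CCE. The libraries labelled knockdown lay below the others, and the control and Ccnb1 groups overlapped. It fell 1.54-fold in the libraries labelled knockdown (log2 fold change -0.62, SE 0.15, adjusted p 0.0306, edgeR). It was 1.41-fold higher with Ccnb1 expression than in the libraries labelled knockdown (log2 fold change 0.50, SE 0.15, adjusted p 0.0459, edgeR), a direction that turned with the uncentred offset for GC content and length (-0.17, adjusted p 0.443). Ccnb1 expression and control did not differ by edgeR's call (0.92 times the control, 95% interval 0.712 to 1.18, adjusted p 0.618). The fall was lost without any single control or Ccnb1 library (adjusted p 0.105 to 0.189) and with total counts as the only scaling (0.0693, edgeR). The rise held under 3 of 17 alternatives, and without the same libraries its adjusted p was 0.0816 to 0.249.

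Ccnb2, the Golgi-associated cyclin B, stood at 60.6 and 65.3 CPM in the control, 46.2 and 35.9 CPM in the libraries labelled knockdown, 60.1 and 54.4 CPM with Ccnb1 expression, and 155 and 145 CPM in CCE. Its J1 groups did not overlap, with the control just above the Ccnb1 group. It fell 1.71-fold in the libraries labelled knockdown (log2 fold change -0.77, SE 0.19, adjusted p 0.0308, edgeR). That call was lost without any single control or Ccnb1 library (adjusted p 0.107 to 0.188) and with total counts as the only scaling (0.0598, edgeR). The level with Ccnb1 expression was 1.47 times that of the libraries labelled knockdown (log2 fold change 0.56, SE 0.19, adjusted p 0.0615, edgeR). With a library left out this log2 fold change ranged from 0.45 to 0.79. The level was 0.86 times the control (95% interval 0.630 to 1.18, adjusted p 0.481, edgeR). No copy of Ccnb2 or Cdk1 was found.

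Ccnb1 and Ccnb1-ps were the 2 of the 7 that edgeR did not call between the libraries labelled knockdown and the control. Ccnb1 was at 0.77 times the control (95% interval 0.610 to 0.978, log2 fold change -0.37, SE 0.14, adjusted p 0.0968, edgeR). Ccnb1-ps was at 0.80 times the control (interval 0.613 to 1.04, adjusted p 0.181, edgeR), and the sum with Gm12856 at 0.76 times (interval 0.624 to 0.934, adjusted p 0.0560). Without library 1 or 2 labelled knockdown the log2 fold change of Ccnb1 was -0.24 or -0.57. That of Ccnb1-ps was -0.48 without library 2. With the uncentred offset the differences were 0.02 for Ccnb1, 0.21 for Ccnb1-ps and 0.00 for the sum.

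**Figure D2:**
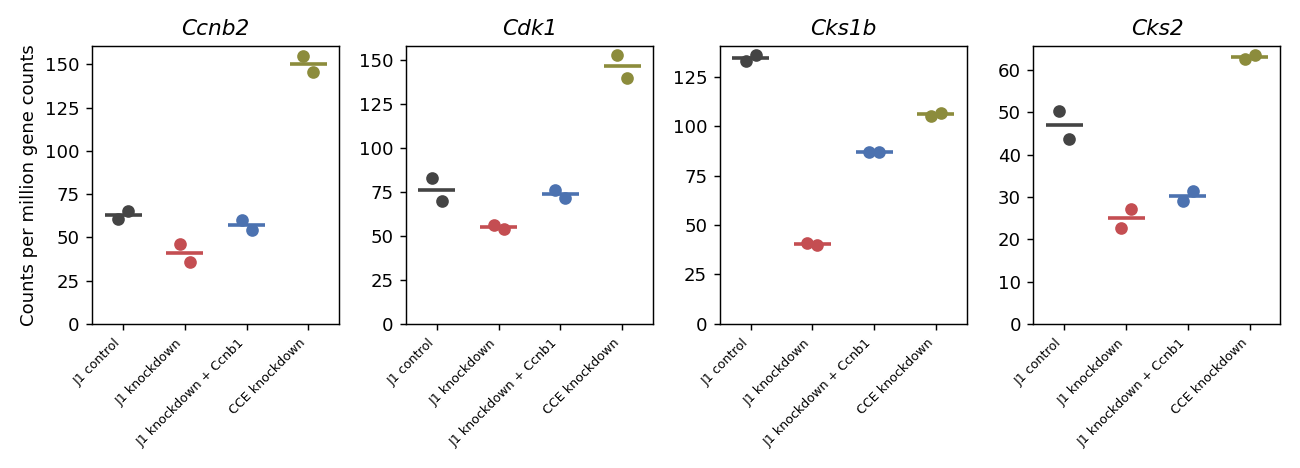
CPM of Ccnb2, Cdk1, Cks1b and Cks2, each on an axis from 0, with a point for each library and a line at the mean of each group of 2. Cks1b has its J1 points at 133 and 136, at 40.9 and 39.8 and at 86.9 CPM, while the Cdk1 points of control and Ccnb1 group overlap.

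Between the Ccnb1 group and the libraries labelled knockdown, 4 of the 7 were called higher (Ccnb1-ps, Gm12856, Cks1b and Cdk1) and 0 lower, with a median log2 fold change of 0.56. Over all genes tested 38.8% were called, 22.8% higher and 16% lower, with a median of 0.14. Higher calls made up 58.7% of these, and 34.2% with the uncentred offset. All 7 genes had groups without overlap in CPM, as had 70.5% of all genes tested. With a library left out the medians were 0.54 to 0.79 for the 7 and 0.06 to 0.29 for all genes. The calls of Ccnb1-ps, Gm12856 and Cks1b held under all 17 alternatives, and that of Cdk1 did not. Against the control, 2 of the 7 were called higher with Ccnb1 expression (Ccnb1-ps and Gm12856) and 1 lower (Cks1b), with a median of -0.13. Here 19.8% of all genes were called, 9.35% higher and 10.5% lower, with a median of 0.07, and 5 of the 7 had groups without overlap, against 79% of all genes. Higher calls made up 47.2% of these, and 23.7% with the uncentred offset. Medians with a library left out were -0.15 to -0.02 for the 7 and 0.06 to 0.11 for all genes. Only the call of Ccnb1-ps held under all 17 alternatives. The comparisons share libraries, so a low level in the libraries labelled knockdown enters 2 of them.

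**Figure D3:**
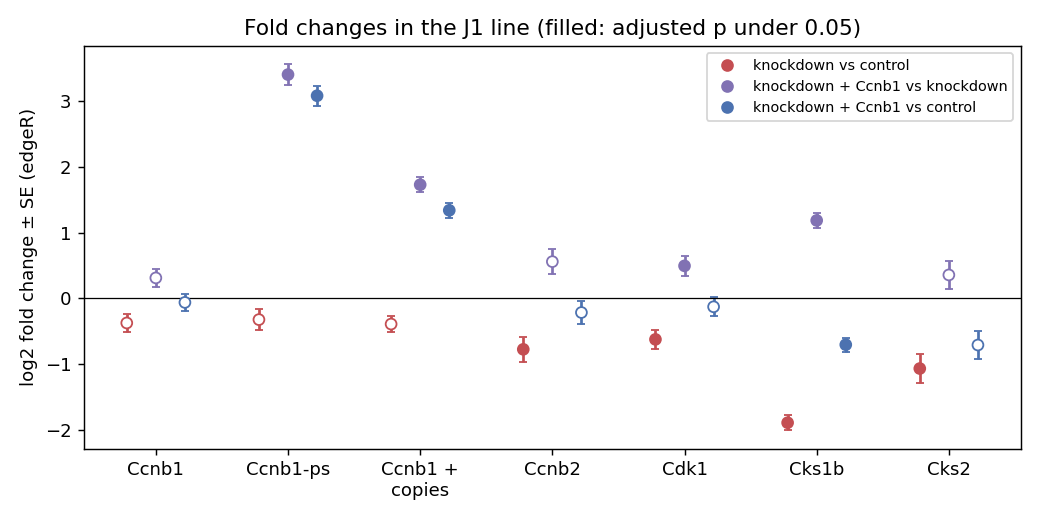
Log2 fold changes from edgeR with standard errors for 3 J1 comparisons; filled points have an adjusted p under 0.05, and Gm12856, with 0 counts in the libraries labelled knockdown, is left out. The Ccnb1-ps points lie at 3.40 and 3.08 with Ccnb1 expression, the Ccnb1 points between -0.37 and 0.31, and the 3 Cks1b points at -1.89, 1.19 and -0.70.

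Per kilobase of annotated exon, the control order was Cks1b (119 ± 1.88 CPM per kb, SD, n = 2), Cks2 (67.9 ± 6.84), Ccnb2 (41.1 ± 2.18), Ccnb1 (31.3 ± 0.933), Ccnb1-ps (23.8 ± 2.91), Cdk1 (15.5 ± 1.82) and Gm12856 (2.39 ± 0.236). The ranges of the neighbours in this order did not overlap. The length was that of all annotated exons of a gene merged. It was 4217 bases for Ccnb1, whose main transcript has 2489, and 1126 for Cks1b, whose main transcript has 849. For Ccnb2 both lengths were 1531 bases. The order, here and in the other groups, therefore depends on the length chosen. In the libraries labelled knockdown Cks2 (36.1 ± 4.61) and Cks1b (35.8 ± 0.733) could not be ordered, nor could Ccnb1 (26.9 ± 4.24) and Ccnb2 (26.8 ± 4.75). With Ccnb1 expression the single-exon copy Ccnb1-ps came first at 213 ± 8.92 CPM per kb, and Ccnb1 stood at 31.6 ± 0.963. In CCE the order was Ccnb2 (98.0 ± 4.29), Cks1b (94.2 ± 0.874), Cks2 (91.3 ± 1.01), Ccnb1 (60.3 ± 2.41) and Cdk1 (29.7 ± 1.93). Ccnb2 and Cks1b differed there by less than the SD of Ccnb2.

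The promoters of the coding members were searched for motifs known from cell cycle genes, which many other promoters also hold. TTTGAA is the letter form of the cell cycle homology region, bound by complexes of the MuvB core, and CCAAT is the box bound by NF-Y. Both were searched on both strands in the 250 bases before the transcription start in RefSeq promoters (GRCm38.p6), along with TTCGAA, and no match of 1 overlaps a match of another. The stretches that hold the matches are shown 5′ to 3′ on the gene's strand, with the matches in capitals (TTCAAA and ATTGG are the reverse strand). They are given as a description, and whether the motifs bear on the levels of these genes was not tested.
Ccnb1, chr13:100786539-100786595 (-): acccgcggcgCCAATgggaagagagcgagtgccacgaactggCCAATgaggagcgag
Ccnb2, chr9:70421561-70421731 (-): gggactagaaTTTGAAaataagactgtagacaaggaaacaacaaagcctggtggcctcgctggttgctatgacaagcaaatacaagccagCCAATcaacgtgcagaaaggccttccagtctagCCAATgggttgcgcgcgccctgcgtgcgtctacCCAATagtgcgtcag
Cdk1, chr10:69352913-69353130 (-): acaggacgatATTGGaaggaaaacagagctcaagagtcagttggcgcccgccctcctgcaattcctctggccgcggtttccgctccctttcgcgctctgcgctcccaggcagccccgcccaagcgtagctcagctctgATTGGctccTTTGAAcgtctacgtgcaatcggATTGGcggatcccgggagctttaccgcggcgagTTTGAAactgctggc
Cks1b, chr3:89418293-89418518 (-): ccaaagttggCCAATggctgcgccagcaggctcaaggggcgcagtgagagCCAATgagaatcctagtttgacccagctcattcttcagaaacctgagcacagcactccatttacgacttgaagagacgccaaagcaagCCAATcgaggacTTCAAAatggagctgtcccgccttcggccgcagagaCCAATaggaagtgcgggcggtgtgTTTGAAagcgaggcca
Cks2, chr13:51645157-51645224 (+): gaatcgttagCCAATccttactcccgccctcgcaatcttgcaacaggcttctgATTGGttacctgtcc
Cks1b held 2 TTTGAA and 4 CCAAT matches, Cdk1 2 and 3, and Ccnb2 1 and 3. Ccnb1 and Cks2 held 2 CCAAT matches each and no TTTGAA in this window, and none of the 5 held TTCGAA. Of 27025 promoters of the same length, 16.3% held TTTGAA, 1.34% TTCGAA and 34.5% CCAAT, 10.5% held 2 or more CCAAT, and 6.21% held CCAAT with TTTGAA or TTCGAA. A match is a stretch of letters, and binding was not measured.

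Beyond the 7 genes, a list of 47 genes that act on cyclin B-Cdk1 was examined in 6 roles, of which 46 were tested (Ccnb3, with at most 0.906 CPM in any library, was not). In the libraries labelled knockdown 4 were higher and 17 lower than in the control, which is 45.7% called against 28.9% of all genes, with a median log2 fold change of -0.32. With Ccnb1 expression 15 were higher and 9 lower than in the libraries labelled knockdown (52.2% against 38.8%, median 0.18). Against the control 2 were higher and 7 lower (19.6% against 19.8%, median -0.11). With single libraries left out these counts moved widely. The medians then ranged from -0.40 to -0.35, from 0.21 to 0.30, and from -0.13 to -0.07. The uncentred offset gave 10 higher and 10 lower, 6 and 19, and 3 and 12, with medians of -0.03, -0.41 and -0.32.

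Among the activators, Cdc25a and Plk1 fell in the libraries labelled knockdown and rose with Ccnb1 expression over them, under all 17 alternatives. Cdc25a, a phosphatase that removes inhibitory phosphates from Cdk1 and Cdk2, stood at 156 and 176 CPM in the control, 43.7 and 50.0 CPM in the libraries labelled knockdown, and 158 and 144 CPM with Ccnb1 expression. Its log2 fold changes were -1.99 (SE 0.14, adjusted p 0.000725, edgeR) and 1.77 (SE 0.13, adjusted p 0.000617). Plk1, the kinase that switches on Cdc25 phosphatases, stood at 93.9 and 86.7, 34.1 and 38.6, and 123 and 110 CPM, with log2 fold changes of -1.47 (adjusted p 0.00222, edgeR) and 1.76 (0.000795). In both genes the control and Ccnb1 groups lay above the libraries labelled knockdown in every library. Cdc25c, another of these phosphatases, was lower with Ccnb1 expression than in the libraries labelled knockdown (-0.94, adjusted p 0.0224, edgeR). No activator differed by edgeR's call between the Ccnb1 group and the control (6 tested, where 19.8% of all genes were called).

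Among the other cyclins and kinases, Cdk2, Ccna2 and Ccnf were called lower in the libraries labelled knockdown. Cdk2, the kinase of S phase, stood at 103 and 87.1 CPM in the control, 47.5 and 36.4 CPM in the libraries labelled knockdown, and 97.9 and 106 CPM with Ccnb1 expression. Its log2 fold changes were -1.33 (SE 0.18, adjusted p 0.00542, edgeR) and 1.36 (SE 0.18, adjusted p 0.00347). Cyclin A2, its partner, gave -1.20 (Ccna2, adjusted p 0.0183, edgeR) and 1.53 (0.00627). Ccnh, the cyclin of the kinase that activates Cdk1, was 1.83 higher on the log2 scale with Ccnb1 expression than in the libraries labelled knockdown (adjusted p 0.0105, edgeR). Ccnf, which encodes cyclin F of a ubiquitin ligase, was lower by -0.43 in the libraries labelled knockdown and -0.37 with Ccnb1 expression, each against the control (adjusted p 0.00672 and 0.0124, edgeR).

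Of the 6 inhibitors, 2 were higher and 2 lower in the libraries labelled knockdown than in the control (66.7% called, against 28.9% of all genes). Cdkn1a, which encodes the p21 inhibitor, stood at 37.8 and 39.2 CPM in the control, 197 and 169 CPM in the libraries labelled knockdown, 96.6 and 108 CPM with Ccnb1 expression, and 333 and 229 CPM in CCE. It rose 4.27-fold in the libraries labelled knockdown (log2 fold change 2.09, SE 0.13, adjusted p 0.000649, edgeR), under all 17 alternatives. With Ccnb1 expression it was lower than there (-0.76, SE 0.13, adjusted p 0.00760, edgeR) but higher than in the control (1.33, SE 0.13, adjusted p 0.00275). The checkpoint kinase Chek2 was higher in the libraries labelled knockdown (0.74, adjusted p 0.0344, edgeR) and lower with Ccnb1 expression than there (-1.10, 0.00801), as was Chek1 in the second comparison (-0.49, 0.0297). Pkmyt1, a kinase that puts the inhibitory phosphate on Cdk1, was lower in the libraries labelled knockdown than in the control (-0.69, adjusted p 0.0234, edgeR). Wee1, another kinase of that kind, was at 18.6 and 13.1, 20.7 and 11.4, and 51.9 and 52.3 CPM in the 3 J1 groups. It rose with Ccnb1 expression over the libraries labelled knockdown (1.77, SE 0.36, adjusted p 0.0140, edgeR) and over the control (1.65, adjusted p 0.0278). The stress gene Gadd45a was below the control in both eIF4A3 groups of J1 (-0.95 and -1.02, adjusted p 0.0323 for each, edgeR).

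Of 10 transcription factors and MuvB subunits, 1 was higher and 4 lower in the libraries labelled knockdown than in the control (50% called, against 28.9% of all genes). Lin37, a MuvB subunit, rose (log2 fold change 1.77, SE 0.36, adjusted p 0.0194, edgeR). Rbbp4, another subunit, fell (-0.78, SE 0.07, adjusted p 0.00172), as did Lin9 (-1.28), Mybl2, which encodes B-Myb (-0.49), and Nfya, a subunit of NF-Y (-0.77). With Ccnb1 expression Lin37 was lower than in the libraries labelled knockdown (-1.64, adjusted p 0.0182, edgeR), as was the NF-Y subunit gene Nfyc (-0.67, 0.0427). Mybl2 (0.31), Lin9 (1.55), Lin54 (1.35) and Nfya (0.50) were higher. Rbbp4 and Nfyc were lower than in the control (-0.58 and -0.87, adjusted p 0.00498 and 0.0315, edgeR).

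The 12 genes of the destruction machinery gave 1 higher and 5 lower in the libraries labelled knockdown (50% called, against the same 28.9%). Fbxo5, which encodes the inhibitor Emi1 of the anaphase-promoting complex, stood at 102 and 99.4 CPM in the control, 59.6 and 50.9 CPM in the libraries labelled knockdown, and 98.4 and 97.6 CPM with Ccnb1 expression. It fell (log2 fold change -1.02, SE 0.13, adjusted p 0.00444, edgeR), and its level was 0.91 higher on the log2 scale with Ccnb1 expression than there (adjusted p 0.00443). The checkpoint genes Mad2l1 (-0.93) and Bub1b (-0.39), the conjugating enzyme gene Ube2c (-0.75) and the activator gene Fzr1 (-0.57) were also called lower, and the subunit gene Cdc16 higher (0.69, adjusted p 0.0172, edgeR). With Ccnb1 expression Cdc16 and Anapc2 were lower than in the libraries labelled knockdown (-0.67 and -0.64). Cdc20 (0.43), Cdc27 (0.90), Bub1b (0.37) and Mad2l1 (0.59) were higher, and Cdc27, Bub1b and Mad2l1 turned direction with the uncentred offset (-0.14, -0.05 and -0.50). Mad2l1 was also negative with the centred offset, alone or with the replicate block (-0.03 in both). Fzr1 (-1.02) and Anapc11 (-1.27) were called lower than in the control. In the pathway that shields Cdk1 substrates from the phosphatase PP2A-B55, Ensa was lower in the libraries labelled knockdown (-0.59, adjusted p 0.0428, edgeR). Ppp2r2d, which encodes a B55 subunit, stood at 358 and 371, 484 and 473, and 202 and 187 CPM in the 3 J1 groups. It was lower with Ccnb1 expression than in either other group (-1.22 and -0.98, adjusted p 0.000285 and 0.00117, edgeR), under all 17 alternatives.

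Of the 21 calls of this list between the libraries labelled knockdown and the control, 4 held under all 17 alternatives, and of the 24 and 9 calls in the other comparisons 4 and 1 did. Those were Cdc25a, Plk1, Cdkn1a and Rbbp4, then Cdk2, Cdc25a, Plk1 and Ppp2r2d, and then Ppp2r2d. The share of all called genes that held so is not given here, so the list cannot be set against other genes.

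**Figure D4:**
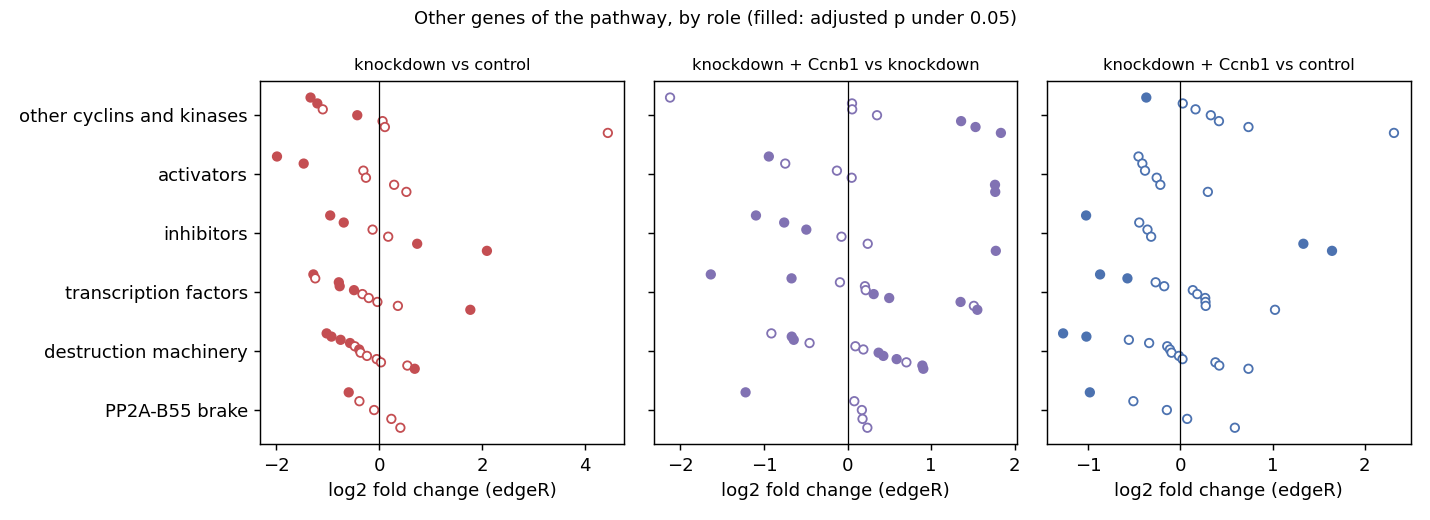
Log2 fold changes from edgeR of the 46 tested genes of the list, a point for each gene in rows by role and a panel for each J1 comparison; filled points have an adjusted p under 0.05, and each panel has its own scale. Filled points lie on the left in 17 of 21 cases in the first panel, and the third panel has 9 filled points.

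Genes whose pattern was most like the summed cyclin B1 counts were ranked by Pearson's r of log2(CPM + 1) over the 6 J1 libraries, among 7582 genes whose mean reached 20 CPM. The nearest were Taok1, Heatr5a, Nfatc3, Nol8 and Ylpm1, with r from 0.998 to 1.00, and 345 genes had r above 0.95. Taok1, for example, stood at 91.8 and 89.4, 69.1 and 87.6, and 242 and 239 CPM in the 3 groups. Genes nearest to Cdk1 were Ddx19a (r 0.991), Cdc5l (0.977), Slc35e3 (0.974), Cse1l (0.971) and Tuba1a (0.970), with 40 genes above 0.95. The 6 libraries fall into 3 groups, and these values describe those libraries.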

How the data were processed

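Per the submitters' processing notes, edgeR 3.26.8, HTSeq 0.11.2, SAMtools 1.9, Bowtie2 2.3.4.3 and build mm9 were used, with no role, setting or strand handling given. The values deposited by the authors are raw read counts for each Ensembl gene. Of each table, 5 summary rows that name no gene entered neither library sizes nor tests. Reads were single-end or paired-end, per the labels' protocols, without saying which library had which. Symbols matched 32620 gene identifiers. CPM were computed over all gene rows. The main test was the two-sided quasi-likelihood test of edgeR 4.0.16 (R 4.3.3) with TMM scaling and filterByExpr in 1 fit over the 6 J1 libraries, Benjamini-Hochberg adjustment over 14462 genes and a threshold of 0.05. Standard errors were taken from the log2 fold change and the F statistic. The spread is shared by the 3 groups, so leaving out a library changes it for every comparison, and a lone library is then assumed to vary like the other groups. The script was tested on simulated data.

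Copies were sought with BLAST 2.17.0 among GENCODE M21 transcripts, which use another build than mm9, so only chromosomes are given. The floor of 3 counts lay between 0.360 and 0.834 CPM in the J1 libraries, and at 0.125 and 0.117 CPM in the CCE libraries. The binomial intervals and these floors cover counting error only, as reads lacked molecular identifiers. The intervals of fold changes and the floor multiplied by the spread also include the spread between libraries. Alternatives were DESeq2 1.42.0, other scalings and filters, a replicate block, an offset for GC content and length, counts divided by the spread, 2 groups only, and leaving out each library. The uncentred offset, the sum of Cks2 with its copies and the floor multiplied by the spread were chosen after seeing the data.

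The members and lists were chosen with earlier results of these data known. Every member was named in every comparison. Of the list of 47 genes, the called gene of each role and direction with the smallest adjusted p was named, as was every called gene where 5 or fewer were called. The 5 most similar genes excluded predicted and clone names.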

Additional observations from a re-analysis of the deposited data

How the results depend on the processing

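The calls of the 7 genes that held under all 17 alternatives were those of Ccnb1-ps, Gm12856 and Cks1b between Ccnb1 expression and knockdown, of Ccnb1-ps between Ccnb1 expression and control, and of Cks1b between knockdown and control. The number of genes called between the libraries labelled knockdown and the control was 4184. It was 2631 with a replicate block, 2561 with the block and an offset for GC content and length, 1760 with only the 2 groups compared and 701 to 10225 with a library left out. Between Ccnb1 expression and knockdown the number was 5616, with 3558 under the block with the offset and 1674 to 11078 with a library left out. Between Ccnb1 expression and control it was 2865, with 4656 by DESeq2, 1893 with the offset, 1066 with block and offset, 8385 with counts divided by the spread, 8658 with only the 2 groups and 254 to 8806 with a library left out. The cause of these moves was not tested. For all called genes, the share that held under all 17 alternatives is not given here.

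For Ccnb1 summed with its copies, the difference between knockdown and control passed the threshold by DESeq2 (log2 fold change -0.34, adjusted p 0.0195) and with no filter beyond a count above 0 (-0.42, adjusted p 0.0442 by edgeR), and ranged from -0.58 to -0.27 with a library left out. With the uncentred offset it was 0.00048, with Ccnb1 alone at 0.017 and Ccnb1-ps at 0.21. Between Ccnb1 expression and control the sum ranged from 1.34 to 1.38 with a library left out. The share on Ccnb1-ps alone with Ccnb1 expression was 62.1%, against 69.8% on both copies. Between Ccnb1 expression and knockdown, Ccnb1 (-0.38), Cdk1 (-0.17) and Cks2 (-0.47) turned direction with the uncentred offset, and Cks2 also with the centred offset, without and with the replicate block (-0.0067 and -0.0065). Eif4a3 turned with the centred offset (0.35) and with block and offset (0.39). With a library left out it ranged from -0.44 to 0.55, the latter without library 1 labelled knockdown. Between Ccnb1 expression and control, Ccnb1 turned from -0.06 to 1.34 when summed with its copies and to 0.015 with total counts as the only scaling, and Cdk1 ranged from -0.22 to 0.011 with a library left out. Of 414 alternatives for single genes, 320 kept direction and side of the threshold, 58 lost the call, 22 gained one and 14 turned direction.

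Replicate numbers did not pair the libraries. Deviations of same-numbered libraries from their group means correlated at -0.0088, -0.028 and 0.0077 over 11713 genes. With the replicate block the falls of Cdk1 and Ccnb2 between knockdown and control had adjusted p of 0.0601 and 0.0616, and the rise of Cdk1 with Ccnb1 expression 0.0755, by edgeR. In the libraries labelled knockdown 3 counts are 0.682 and 0.834 CPM.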

Other observations

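Some genes of the list stood at quite different levels in the J1 and CCE lines, and they are named after their values were seen. Ube2s, the enzyme that extends ubiquitin chains for the anaphase-promoting complex, stood at 3.06 to 7.66 CPM in the 6 J1 libraries and at 173 and 177 CPM in CCE. Cdc20, an activator of that complex, stood at 147 to 208 CPM in J1 and 541 and 588 CPM in CCE. Pkmyt1 stood at 49.6 to 78.3 CPM in J1 and 15.1 and 16.8 CPM in CCE. Cdk2 stood at 48.7 and 49.7 CPM in CCE, near the 47.5 and 36.4 CPM of the J1 libraries labelled knockdown. The lines were counted in different ways, and these values are given with no test.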
